A study of Mus musculus with 8 samples.

Results

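The Toll-like receptors Tlr1 to Tlr9 and the adaptor Myd88 were examined in haematopoietic stem cells (HSCs), from which every blood lineage of the bone marrow descends. The 10 genes were taken by symbol, and each matched 1 row of the 38172 gene rows of the authors' table. The series measured polyadenylated RNA of HSCs freshly sorted from the bone marrow of C57BL/6 mice, named wild type in the design text, at 4 months (young) and 24 months (old). The gate was SP-KSL-CD150+, which combines dye efflux (side population), Kit, Sca-1 and CD150 on the surface and an absence of lineage markers. There were 2 biological replicates per age, numbered 13 and 14 at both ages, and each was sequenced as 2 technical libraries, which were averaged here. No genetic change or treatment other than age separates the groups, and the number of mice behind a replicate is not stated.

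Toll-like receptors are membrane proteins that recognise microbial molecules through leucine-rich repeats and signal through a cytoplasmic TIR domain. Tlr1, Tlr2, Tlr4, Tlr5 and Tlr6 act mainly at the cell surface, whereas Tlr3, Tlr7, Tlr8 and Tlr9 sense nucleic acids inside endosomes. All of them except Tlr3 signal through Myd88, which recruits IRAK kinases and leads to NF-kB, and receptors of the interleukin-1 family use the same adaptor. HSCs and early progenitors are known to carry functional Tlr2 and Tlr4, while high levels of Tlr7, Tlr8 and Tlr9 are typical of mature myeloid, dendritic and B cells.

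Library totals were 40.7 M to 44.2 M on the authors' scale, from an estimated 22.3 M to 66.5 M reads. The markers of the sorted cells were present, with all 12 HSC markers passing the filter on low values and Kit, the stem cell factor receptor, at a mean of 226 FPKM (the per-length scale of the authors). RNA of marker lists of other cell types was also present, at differing levels in the replicates, and which cells it came from was not tested. The summed FPKM of 18 monocyte and macrophage markers was 183 and 458 in young 13 and 14, and 178 and 329 in old 13 and 14. The summed FPKM of 16 neutrophil markers was 337, 1000, 270 and 561 in the same order. In both lists replicate 14 held the higher sum at each age, and none of their genes was at 0 in all 4 replicates. Their most abundant markers were Lyz2 and Prtn3. The dendritic sum, led by H2-Aa, was 261 to 469, highest in old 14, the megakaryocyte sum, led by Itga2b, was 238 to 468, the mast cell and basophil sum, led by Gata2 and with Tpsab1 at 0 throughout, was 123 to 219, and the erythroid sum, led by Hba-a1, was 63.5 to 111. The B cell sum, led by Cd79b, was 20.4 to 22.1, the T and NK cell sum, led by Nkg7, was 38.5 to 62.1, and the stromal and endothelial sum, led by Pecam1, was 44.3 to 64.5. Replicate 14 also held the higher sum at each age in the dendritic, megakaryocyte, mast cell and basophil, B cell, T and NK cell, and stromal and endothelial lists. In young HSCs it did not for the HSC markers (802 in young 13, 762 in young 14) or the erythroid markers (111 and 106).

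The 10 genes fell into an upper and a lower range of levels. Myd88 had the highest level per length, at 24.2 ± 0.231 FPKM in young and 29.6 ± 4.14 in old HSCs (SD, n = 2 per age), which placed its mean above 92.5% of all gene rows. Tlr4, the receptor for bacterial lipopolysaccharide, followed at 7.65 ± 0.795 and 10.9 ± 3.83 FPKM. Tlr2, which recognises bacterial lipopeptides together with Tlr1 or Tlr6, was at 6.46 ± 0.501 and 8.07 ± 2.03 FPKM. Tlr4 lay above Tlr2 within each of the 4 replicates, at 8.21 against 6.64 FPKM in old 13 and 13.6 against 9.5 in old 14, while the ranges over the old replicates overlapped. Tlr6, a partner of Tlr2, was at 2.04 ± 0.0163 and 3.02 ± 0.629 FPKM, and Tlr3, the sensor of double-stranded RNA, at 1.04 ± 0.0295 and 1.35 ± 0.19. From Myd88 down to Tlr8, the replicate ranges of neighbours in this order did not overlap at either age, apart from Tlr4 and Tlr2 in old HSCs. The other 5 genes had means under 1 FPKM, between 0.186 for Tlr5 and 0.345 for Tlr8, and every neighbouring pair among Tlr8, Tlr7, Tlr9 and Tlr1 overlapped at both ages. Tlr1 and Tlr5 overlapped in young HSCs, and Tlr1 was at 0.148 and 0.234 FPKM against 0.116 and 0.156 for Tlr5 in old ones, which also overlap. Tlr1, the other partner of Tlr2, was thus at a mean of 0.212 FPKM where Tlr6 was at 2.53, although the genes are neighbours on chromosome 5 with a gap of 20.4 kb (mm9, 65316073 to 65323938 for Tlr1 and 65344334 to 65351273 for Tlr6, both on the minus strand). Myd88 lies on chromosome 9 from 119245106 to 119249158 (minus strand), Tlr4 on chromosome 4 from 66488845 to 66503830 (plus) and Tlr2 on chromosome 3 from 83640194 to 83645530 (minus). Tlr3 lies on chromosome 8 from 46481019 to 46495893 (minus) and Tlr5 on chromosome 1 from 184884919 to 184906175 (plus).

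**Figure D1:**
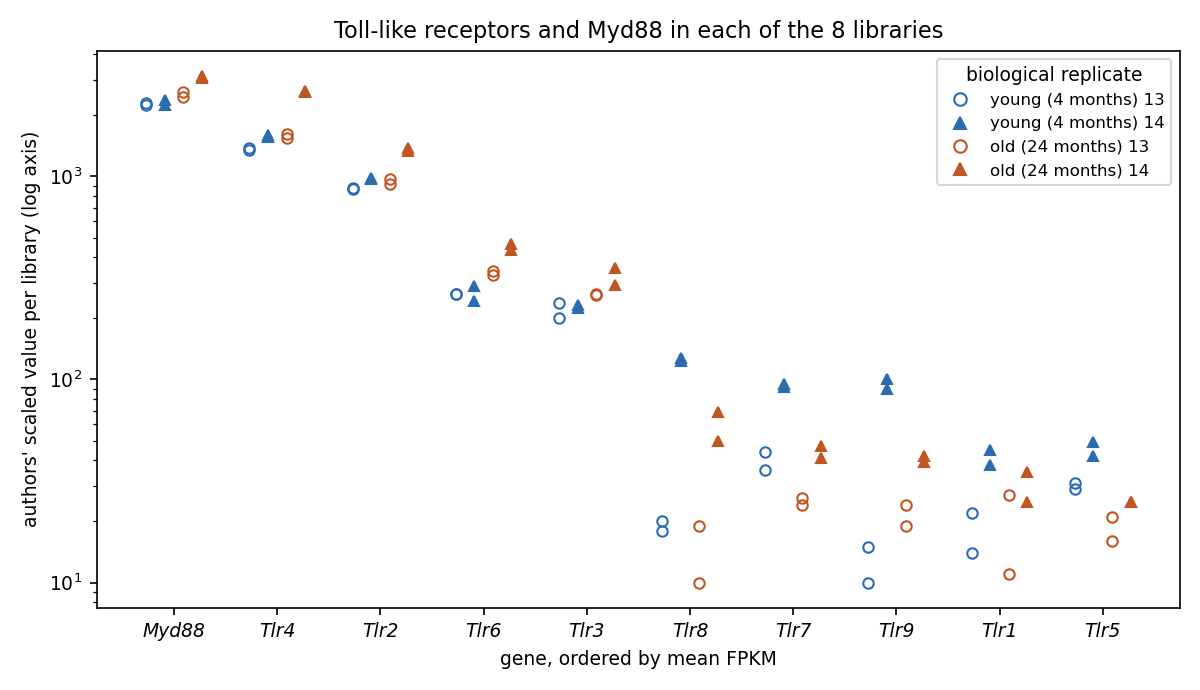
The authors' scaled values (log axis) of the 10 genes in each of the 8 libraries, with genes ordered by mean FPKM, colours for age and symbols for the biological replicate. Myd88, Tlr4, Tlr2, Tlr6 and Tlr3 lie at 200 or above in all libraries, and the filled triangles of replicate 14 lie above the open circles of replicate 13 for Tlr8, Tlr7, Tlr9 and Tlr5 at each age.

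The comparison of the ages asks whether the receptors and their adaptor differed between young and old HSCs. None of the 10 genes passed the test (limma on log2 of the scaled value + 0.5, Benjamini-Hochberg adjusted p under 0.05 over all 18318 genes tested), against 2.55% of all genes tested, 2.01% higher and 0.540% lower in old HSCs. At an unadjusted p under 0.05 there was 1, Tlr6, against 14.0% of all genes, and limma-voom called 0 of the 10. Their fitted changes had a median of 0.05 on the log2 scale, where that of all genes tested was 0.04. Age was the only term of this fit. With the replicate number as a block the calls differed for some of the 10, as given in the closing section. All 10 passed the filter on low values, which asked for 2 or more replicates with a scaled value of 10 or more. In bulk RNA of a sorted population, fewer cells of a type and less RNA per cell cannot be told apart. A p that misses the threshold does not show that levels were equal, and the 95% interval given with each fold shows the sizes that the data allow.

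The 5 genes in the upper range had fitted changes above 0, as had 56.5% of all genes, and 3 of them had both old replicates above both young ones, an arrangement shown by 24.7% of all genes. Tlr6 had scaled values of 263 and 266 in young 13 and 14, and of 335 and 450.5 in old 13 and 14. The ages did not overlap, and the fold of old over young was 1.47 (95% interval 1.03 to 2.09; adjusted p = 0.309, limma). Myd88 was 2281.5 and 2312.5 at 4 months against 2528 and 3084.5 at 24 months. The groups were again apart, by less than the difference between the old replicates, with a fold of 1.22 (0.945 to 1.56; adjusted p = 0.507, limma). Tlr3 was 219.5 and 228.5 at 4 months against 263.5 and 321.5 at 24 months, a fold of 1.3 (0.923 to 1.83; adjusted p = 0.514, limma).

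The ages overlapped for Tlr4 and Tlr2. Tlr4 was 1362.5 and 1578.5 at 4 months against 1578 and 2617.5 at 24 months, so that old 13 lay just below young 14 and old 14 stood above the other 3. Its fold was 1.39 (0.927 to 2.07; adjusted p = 0.481, limma). Tlr2 was 870.5 and 971.5 at 4 months against 946.5 and 1355 at 24 months, with the same arrangement and a fold of 1.23 (0.88 to 1.72; adjusted p = 0.62, limma). For all 5 genes of the upper range old 14 was the highest replicate. Without old 14 the fitted log2 change of Tlr4 went from 0.47 to 0.11 and that of Tlr2 from 0.30 to 0.04, while without old 13 they were 0.84 and 0.56. The 2 technical libraries of a replicate differed by at most 0.27 on the log2 scale in these 5 genes, and for Tlr4 by at most 0.07.

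**Figure D2:**
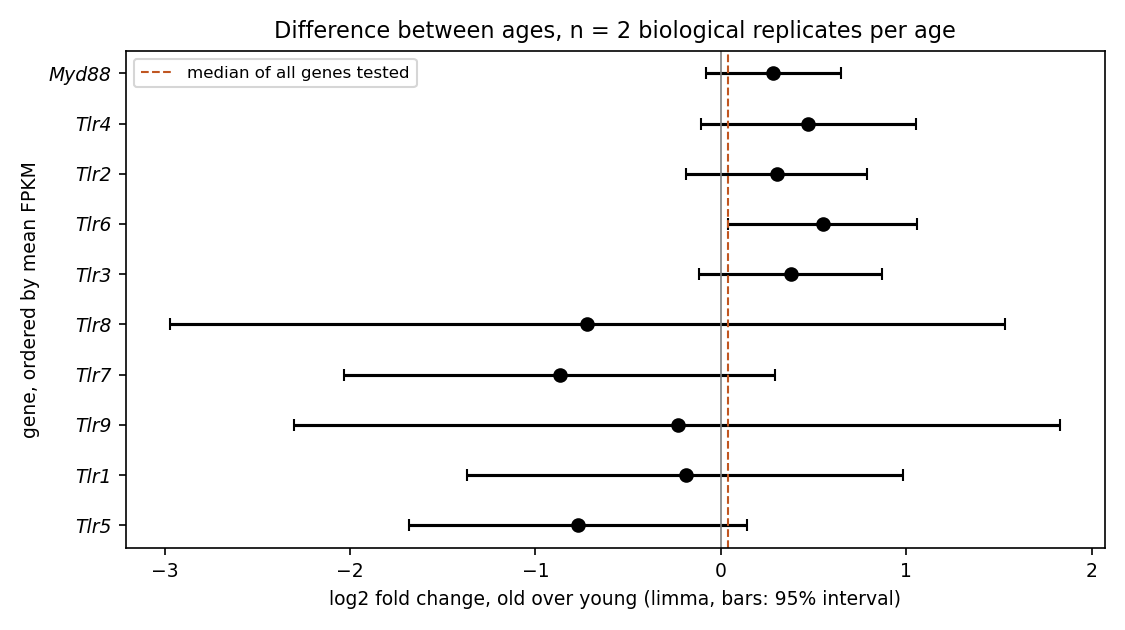
Fitted log2 fold change of old over young HSCs for the 10 genes, ordered by mean FPKM, with 95% intervals from limma as bars (n = 2 biological replicates per age). The dashed line marks the median of all genes tested, 0.04. Intervals of Tlr8 and Tlr9 reach beyond 1 in both directions, and the interval of Tlr6, from 0.04 to 1.06, lies above 0.

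The 5 genes in the lower range had fitted changes below 0, as had 43.5% of all genes. Fitted changes between the ages were above 0 for 2 of 15 neutrophil markers (median log2 change -2.32) and for 3 of 17 monocyte and macrophage markers (-0.53). Medians were also below 0 for erythroid (0 of 10, -0.98), B cell (2 of 9, -0.73) and stromal and endothelial markers (1 of 11, -0.7). They were above 0 for HSC (12 of 12, 0.32), megakaryocyte and platelet (6 of 8, 0.56) and dendritic markers (8 of 11, 0.27). The same held for T and NK cell (4 of 6, 0.18) and mast cell and basophil markers (4 of 6, 0.04). The part of such cells in the changes of the 5 genes was not tested. In Tlr1, Tlr8 and Tlr9 the difference between replicates 13 and 14 was larger at both ages than the fitted difference between ages. Tlr8, an endosomal receptor of the single-stranded RNA group, was 19 and 125 in young 13 and 14, and 14.5 and 59.5 in old 13 and 14. Tlr9, the receptor for unmethylated CpG DNA, was 12.5, 95.5, 21.5 and 40.5 in the same order. Tlr7, the sensor of single-stranded RNA, was 40.0, 93.5, 25 and 44. In all 3 young 14 was the highest replicate, and the replicates numbered 13 were lower than those numbered 14 at each age. Young 14 exceeded young 13 by a ratio of 6.58 for Tlr8, 7.64 for Tlr9 and 2.34 for Tlr7. Old 14 exceeded old 13 by a ratio of 4.1, 1.88 and 1.76. A ratio of at least 1.5 at both ages was shown by 4 of the 10 genes, these 3 and Tlr1, where 2.04% of all genes tested showed it. In young HSCs 4 of the 10 genes were at least 2 times higher in replicate 14 (2.69% of all genes), and in old HSCs 1 was, Tlr8 (1.82%).

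These low values rested on few reads, as estimated from the scaled values. Tlr9 had 8 and 16 reads in the libraries of young 13 and 97 and 108 in those of young 14. Tlr8 had 10 and 32 reads in young 13 and 118 and 153 in young 14. Reads are not corrected for depth. In scaled values the libraries of a pair were far closer to each other than to those of the other replicate in young HSCs. Tlr8 had 18 and 20 in young 13 against 123 and 127 in young 14, and Tlr9 had 15 and 10 against 101 and 90. Part of the Tlr9 row cannot be told apart from an unnamed gene model of similar level that covers 3404 bases of its span on the opposite strand, since strand use in the counting is not given in the sources used here. Tlr9 spans 106124929 to 106129207 of chromosome 9 (mm9, plus strand). Tlr8, from 163680664 to 163701720, and Tlr7, from 163742863 to 163768460, are neighbours on the minus strand of the X chromosome with a gap of 41.1 kb.

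The fold of old over young was 0.606 for Tlr8 (95% interval 0.128 to 2.88; adjusted p = 0.818, limma) and 0.85 for Tlr9 (0.203 to 3.55; adjusted p = 0.947). Without young 14 the direction turned for both, to log2 changes of 0.62 and 1.21, and without old 13 to 0.28 and 0.21. For Tlr7 the fold was 0.546 (0.244 to 1.22; adjusted p = 0.523), with a log2 change of -0.27 without young 14 and -1.48 without young 13. Tlr1 was 18 and 41.5 at 4 months against 19 and 30 at 24 months, a fold of 0.875 (0.388 to 1.97; adjusted p = 0.918) that turned to a log2 change of 0.40 without young 14 and of 0.13 without old 13. The technical libraries of old 13 alone gave 11 and 27 for Tlr1. Tlr5, the flagellin receptor, was the 1 gene with both old replicates below both young ones, an arrangement of 17.4% of all genes. It was 30.0 and 45.5 at 4 months against 18.5 and 25 at 24 months, a fold of 0.588 (0.313 to 1.1; adjusted p = 0.46).

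Replicate 14 exceeded replicate 13 at both ages in all 10 genes, where 30.6% of all genes tested showed this arrangement. It was noticed after the values were seen. The difference of replicate 14 from 13 lay between 0.02 and 0.21 on the log2 scale for the upper 5 genes at 4 months and between 0.29 and 0.73 at 24 months. For the lower 5 it lay between 0.59 and 2.88 at 4 months and between 0.42 and 2.0 at 24 months, so that the ranges of the upper and lower genes were apart at 4 months and overlapped at 24 months. Among the lineage markers the same arrangement held for 14 of 15 tested neutrophil genes and for 12 of 17 monocyte and macrophage genes, and for 2 of 12 HSC markers. It also held for 7 of 8 megakaryocyte and platelet genes, 4 of 6 mast cell and basophil genes, 3 of 6 T and NK cell genes, 3 of 11 stromal and endothelial genes and 1 of 10 erythroid genes. The median difference was 1.40 in young and 2.94 in old HSCs for the neutrophil genes, and 1.02 and 0.65 for the monocyte and macrophage genes. It was 2.46 and 0.44 for the mast cell and basophil genes, the largest of the marker lists in young HSCs. For the T and NK cell genes it was 0.54 and 0.3, for the B cell genes 0.53 and -0.26, and for the megakaryocyte and platelet genes 0.25 and 0.16. The dendritic genes had 0.03 and 0.3, the stromal and endothelial genes 0.06 and -0.01, and the erythroid genes -0.05 and -0.24. The HSC markers had -0.06 and 0.09. Csf1r, the receptor of macrophage growth factor, was 160.0, 1212, 249 and 529.5 in young 13, young 14, old 13 and old 14, an order of replicates 14 over 13 like that of Tlr8. Of 11 tested dendritic cell markers 4 showed the arrangement, and of 9 B cell markers 1 did. The part of such cells in the levels of the Toll-like receptors was not tested.

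**Figure D3:**
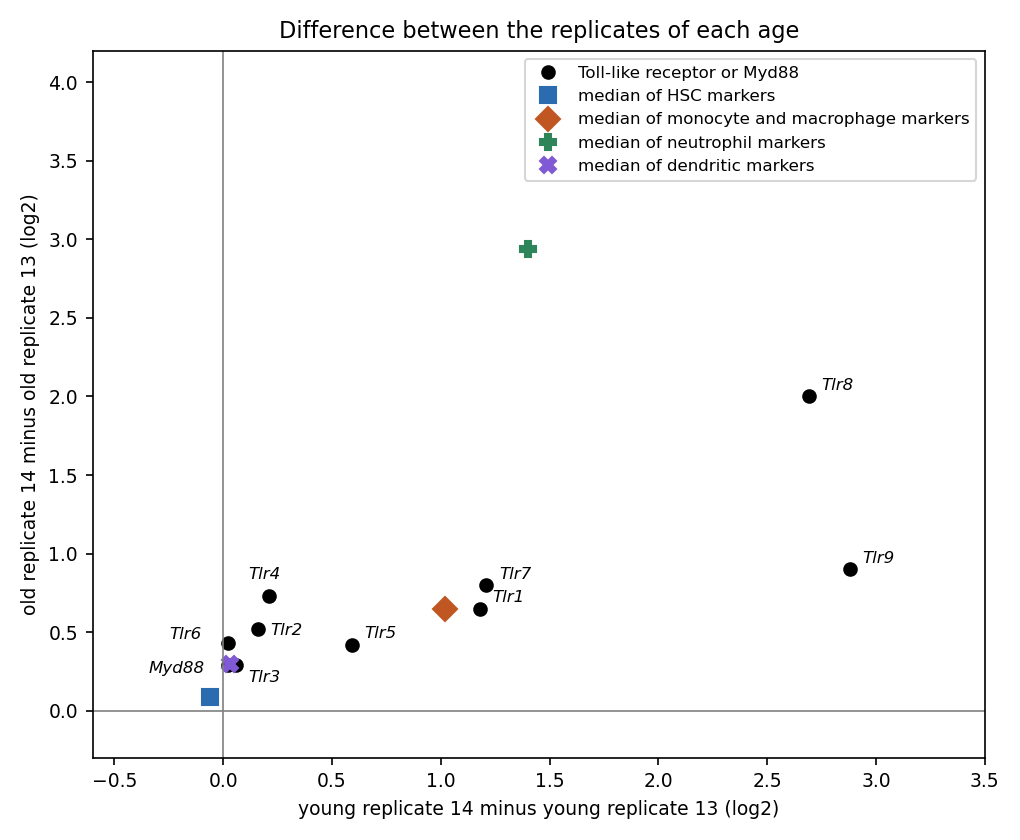
Log2 difference of replicate 14 from replicate 13 in young (horizontal) and old HSCs (vertical) for the 10 genes, as black points, and the median of the same differences for 4 marker lists, as coloured symbols. Every black point lies above 0 on both axes, with Tlr8 at 2.69 and 2.0 and Tlr9 at 2.88 and 0.90 farthest out, and the HSC markers lie near 0. The other marker lists are not drawn, from the mast cell and basophil genes at 2.46 and 0.44 to the erythroid genes at -0.05 and -0.24.

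In the authors' deposited table, whose comparison states no replicate structure, 4 of the 10 genes had an FDR under 0.05. Tlr4 (log2 fold change 0.48, FDR 0.000484) and Tlr6 (0.54, FDR 0.00369) are marked there as higher in old HSCs, as are 6.00% of the genes with an FDR there (5.82% are marked lower), and 7.24% have an FDR under 0.05 in that direction. The authors' deposited table gives Tlr7 (-0.98, FDR 0.0103) and Tlr8 (-1.02, FDR 0.00555) as lower without marking them, where 7.00% of its genes have an FDR under 0.05 in that direction. Tlr7 and Tlr8 are also among the genes whose 2 young replicates differed by a ratio of 2.34 and 6.58. Of the mouse receptors outside the 10, the authors' deposited table marks Tlr13 as lower in old HSCs (-0.95, FDR 0.000941) and leaves Tlr11 and Tlr12 unmarked.

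The RefSeq promoter table (build GRCm38.p6, a later build than the mm9 of the authors' table) held 10 start sites for 8 of the 10 genes. Tlr4 and Tlr7 had no entry. The 250 bases before each start were searched on both strands for GAGGAA, the core bound by the myeloid factor PU.1, and for the interferon-stimulated response element, taken as GAAA, any 2 bases and GAAA. Among all 32851 promoters, 23.3% held the first and 2.98% the second. The PU.1 core was found before Tlr1, Tlr8 and Tlr9, 17, 71 and 106 bases from the start, and the interferon element before Myd88, 30 bases from the start, and before Tlr6, as 2 overlapping matches 100 and 106 bases from it. Of the 10 windows of these genes, 3 held the PU.1 core, a share near the 23.3% of all promoters, and 2 the interferon element, against 2.98%. Tlr1, Tlr8 and Tlr9 are 3 of the 4 genes with a ratio of at least 1.5 between the replicates at both ages, and the remaining gene, Tlr7, had no entry. Myd88 and Tlr6 are 2 of the 3 with both old replicates above both young ones. Both groupings were read from the expression values of these data. Whether a match goes with either arrangement was not tested. The windows of Tlr2, Tlr3 and Tlr5 held neither, nor did the second start of Tlr1 and of Tlr6. A match is a description of the letters and not a binding site. The 5 windows with a match are shown 5′ to 3′ on the strand of the gene, with the matches in capitals: chr9:119340019-119340268 (minus) for Myd88, chr5:64959167-64959416 (minus) for Tlr6, chr5:64933559-64933808 (minus) for Tlr1, chrX:167264330-167264579 (minus) for Tlr8 and chr9:106222348-106222597 (plus) for Tlr9.
Myd88: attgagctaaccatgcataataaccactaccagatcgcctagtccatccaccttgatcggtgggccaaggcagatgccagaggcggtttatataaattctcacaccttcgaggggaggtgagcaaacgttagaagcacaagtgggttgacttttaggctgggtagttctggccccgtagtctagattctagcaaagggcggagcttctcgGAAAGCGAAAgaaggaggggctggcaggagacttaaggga
Tlr6: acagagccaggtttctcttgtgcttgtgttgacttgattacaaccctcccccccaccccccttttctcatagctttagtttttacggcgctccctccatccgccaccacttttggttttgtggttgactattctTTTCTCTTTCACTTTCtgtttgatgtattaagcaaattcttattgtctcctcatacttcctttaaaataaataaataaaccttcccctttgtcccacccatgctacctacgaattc
Tlr1: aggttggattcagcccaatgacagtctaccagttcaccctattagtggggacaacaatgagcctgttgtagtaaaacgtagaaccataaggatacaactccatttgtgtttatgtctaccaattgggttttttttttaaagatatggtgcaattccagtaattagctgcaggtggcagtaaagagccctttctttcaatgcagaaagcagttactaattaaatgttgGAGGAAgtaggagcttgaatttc
Tlr8: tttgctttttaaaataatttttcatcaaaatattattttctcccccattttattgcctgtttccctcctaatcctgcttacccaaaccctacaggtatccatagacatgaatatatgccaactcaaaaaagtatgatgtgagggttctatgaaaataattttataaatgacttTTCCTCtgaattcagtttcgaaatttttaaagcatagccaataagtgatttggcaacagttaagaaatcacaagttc
Tlr9: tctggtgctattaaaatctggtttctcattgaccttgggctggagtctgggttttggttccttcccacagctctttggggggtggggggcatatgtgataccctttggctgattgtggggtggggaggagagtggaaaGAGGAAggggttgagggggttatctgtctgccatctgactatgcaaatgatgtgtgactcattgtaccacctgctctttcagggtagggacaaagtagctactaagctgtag

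Around the receptors, 18 of 112 tested genes of the pathway had an unadjusted p under 0.05 in limma, where 14.0% of all genes tested had one. After adjustment 2 of the 112 passed the test, 1 in each direction, which is 1.79% against 2.55% of all genes. Both belong to the list of inhibitors, of whose 18 tested genes 1 rose and 1 fell. Tnip3, which binds the ubiquitin editor A20 and restrains NF-kB, rose from 2264 and 1897.5 in young to 3591 and 4030.5 in old HSCs, a fold of 1.84 (1.42 to 2.37; adjusted p = 0.0381, limma). Nlrc3, a NOD-like protein that dampens Toll-like receptor signalling through Traf6, fell from 234.5 and 267.5 to 104 and 64, a ratio of 0.327 (0.202 to 0.531; adjusted p = 0.0423). Each of these calls was lost in limma-voom (adjusted p = 0.0567 for Tnip3 and 0.0626 for Nlrc3) with no filter on low values (0.172 and 0.205), with the lower-numbered technical libraries alone (0.0673 and 0.0562) and on leaving out any 1 of the 4 replicates (0.119 to 0.406 and 0.0929 to 0.292). Dusp1, a phosphatase that switches off MAP kinases and responds quickly to stress, was 1273.5, 14484, 637 and 2390 in young 13, young 14, old 13 and old 14, so that young 14 stood far above the rest.

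**Figure D4:**
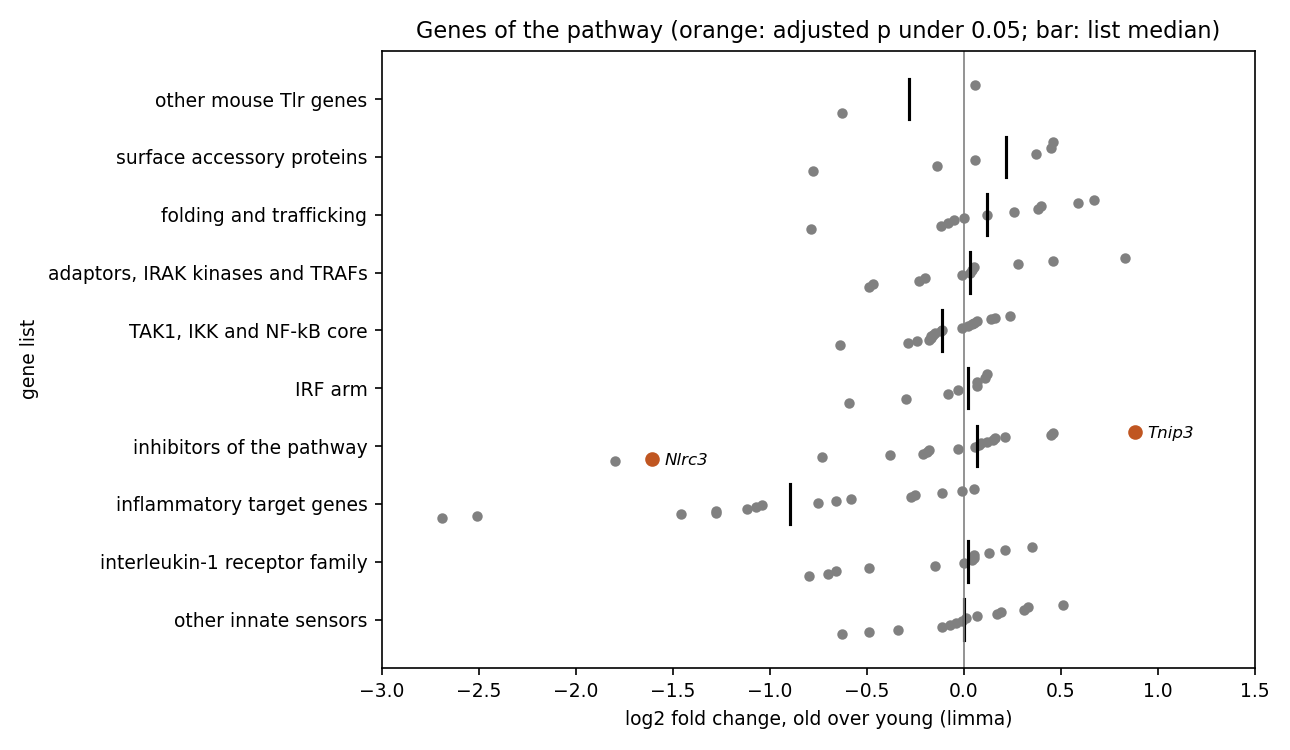
Fitted log2 fold change of old over young HSCs for the tested genes of 10 lists around the Toll-like receptors, 1 point per gene, with black bars at the list medians. Tnip3 at 0.88 and Nlrc3 at -1.61, in orange, are the 2 genes with an adjusted p under 0.05, and the median of the inflammatory target genes is -0.90.

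Of the adaptors, IRAK kinases and TRAFs 0 of 11 passed in limma and 3 had an unadjusted p under 0.05, with a list median of 0.03 on the log2 scale. In this and the following lists, counts at an unadjusted p under 0.05 stand against 14.0% of all genes tested. The genes named are mostly those with the smallest p of their list. Irak3, the IRAK family member that blocks signal release, was 3937 and 3898 at 4 months against 5471 and 5326.5 at 24 months (adjusted p = 0.163). Pik3ap1, the adaptor BCAP that links the receptors to PI3K, was 1220.0 and 1180.5 against 825 and 889.5 (adjusted p = 0.185). For both, the difference between ages was several times that between replicates of an age. Ticam1, the adaptor TRIF of Tlr3 and Tlr4, was 983 and 1035.5 at 4 months against 999.5 and 1070.0 at 24 months, and overlapped. In the TAK1, IKK and NF-kB core 0 of 18 passed with 1 at an unadjusted p under 0.05, Rel, the NF-kB subunit c-Rel, at 572 and 547 at 4 months against 317 and 403.5 at 24 months (adjusted p = 0.18). Nfkbia, the inhibitor that holds NF-kB in the cytoplasm, was 3607 and 3107 against 3787 and 4135.5 (adjusted p = 0.568). Of the IRF arm 0 of 8 passed with 1 at an unadjusted p under 0.05, Irf5, a transcription factor downstream of Myd88, at 981.5 and 1290.5 against 677 and 823.5 (adjusted p = 0.224). Ikbke, a kinase that activates IRF factors, was 2581 and 1982 against 2297.5 and 1470.0 (adjusted p = 0.681) and overlapped.

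Among 6 accessory surface proteins 0 passed in limma and 2 had an unadjusted p under 0.05. Cd180, a Toll-like receptor homologue of B cells and macrophages, was 684 and 1173.5 at 4 months against 447.5 and 604 at 24 months (adjusted p = 0.269). Lbp, the lipopolysaccharide-binding protein, was 1624.5 and 1864 against 2118.5 and 2713.5 (adjusted p = 0.285). Replicate 14 exceeded 13 at both ages in all 6. Ly96, which encodes MD-2, the partner of Tlr4 in lipopolysaccharide binding, was 88 and 126.5 at 4 months against 90.5 and 134.5 at 24 months, and so tracked the replicate number and not the age. Of 11 tested folding and trafficking genes 0 passed, with 2 at an unadjusted p under 0.05, Ctsl and Cnpy4. Ctsl, a cathepsin that cleaves endosomal receptors, was 1695 and 1840.5 at 4 months against 2266.5 and 3135.5 at 24 months (adjusted p = 0.197). Cnpy4, related to the receptor chaperone Cnpy3, was 1757 and 1748.5 against 2070.5 and 2502.5 (adjusted p = 0.331).

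The inflammatory target genes were low or variable. Of 22 genes 16 passed the filter, 0 passed the test in limma, 3 had an unadjusted p under 0.05, and 1 of the 16 had a fitted change above 0. The median log2 change was -0.90 against 0.04 for all genes. Cxcl2, a neutrophil chemokine, was 12.5 and 57.5 at 4 months against 4 and 3.5 at 24 months (adjusted p = 0.132), and Tnf was 72.5 and 139.5 against 47.5 and 35.5 (adjusted p = 0.18). Young 14 exceeded young 13 in the median of this list by 1.25 on the log2 scale. The difference was 1.40 in the neutrophil markers, with which the list shares Lcn2. It was 1.02 in the monocyte and macrophage markers, 2.46 in the mast cell and basophil markers and 0.54 or less in the other marker lists. In old HSCs it was 0.22 in the target list, against 2.94, 0.65 and 0.44 in the neutrophil, monocyte and macrophage, and mast cell and basophil markers. The part of such cells in the list was not tested. Il12b was at 0 in all 4 replicates, and Il6, Nos2, Cxcl1, Ifnb1 and Saa3 did not pass the filter either.

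The interleukin-1 family list held receptors, ligands such as Il1b, and the inhibitor Sigirr. Its median change was 0.02, with 0 of 12 tested genes passing and 1 at an unadjusted p under 0.05. That was Il1rl1, the receptor for interleukin-33, at 327 and 578 at 4 months against 285.5 and 219.5 at 24 months (adjusted p = 0.296). Il1r1, the signalling receptor for interleukin-1, was 942.5 and 1059 at 4 months against 1177.5 and 1369 at 24 months (adjusted p = 0.416). Other innate sensors had a median of 0.00, with 0 of 14 passing and 2 at an unadjusted p under 0.05. Ifih1, the cytosolic RNA sensor MDA5, was 4704.5 and 4966 at 4 months against 6001.5 and 6122.5 at 24 months (adjusted p = 0.345), and the row E330016A19Rik was 1855.5 and 1749 against 1353 and 1217.5 (adjusted p = 0.174). The other mouse receptors were low. Tlr13, a sensor of bacterial ribosomal RNA, was 26 and 264.5 in young 13 and 14, and 21 and 135 in old 13 and 14, an arrangement like that of Tlr8, Tlr12 was between 67 and 125, and Tlr11 was at most 4.5.

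Genes whose centred log2 values were nearest to those of Myd88 over the 4 replicates, among genes with a range of at least 0.5 (that of Myd88 was 0.43), were Bet1, Sft2d2 and Cd200, at root mean square differences of 0.028, 0.032 and 0.034 on the log2 scale. For Tlr4 they were Ubac2, Itm2c and Tspan13, at 0.045, 0.046 and 0.053. Ubac2 overlaps Gpr18, Gpr183 and an unnamed model on the opposite strand, and Sft2d2 overlaps an unnamed one. With 4 values per gene and 5474 and 5473 candidates, these matches describe the arrangement of the replicates, in which old 14 is highest.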

How the data were processed

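PolyA-selected RNA of 8 libraries was analysed. Per the file headers the tables give a ct and an FPKM value for each gene model, and these models merge Ensembl, UCSC and RefSeq transcripts. The deposited ct values are a score, since the authors multiplied the reads of a library by 1 factor and rounded them: in the 4 libraries with a factor over 1, 0 genes lay on the whole numbers that such a factor skips. Factors were estimated from these gaps, or from doubled whole numbers where the factor was under 1. The reads given here are values divided by these factors, and so are estimates. Per gene, the deposited FPKM equals this score times a fixed constant. The authors used DESeq and build mm9, per the submitters' processing notes, which give no role. The sources used here name no aligner or counter. Start positions count from 1, since the span of Tlr9 then has the length of its RefSeq gene. A log2 fold change and an FDR (adjusted p-value) from the authors' comparison are deposited as well.

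After averaging technical libraries, the 4 replicates were fitted as log2(value + 0.5) with age as the only term in limma 3.58.1 (R 4.3.3), with a trended prior and two-sided tests. Genes with at least 10 in at least 2 replicates were tested (18318), and p-values were adjusted over all of them by Benjamini-Hochberg. Fold changes are on the log2(value + 0.5) scale, which understates the change of low genes. The labels do not say that replicates are separate animals, so p-values cover the spread between these samples alone. The fit was tested on simulated data with 200 genes of any level changed in each of 10 simulations. It called 0.4% of the genes changed by a fold of 1.5 and 15.4% of those changed by 2. At folds of 4 and 8 it called 68.0% and 83.6%, and 4.34% of all calls were false. Most changes of a fold of 2 or less would thus go uncalled. The simulated spread was drawn from the prior of the fit itself, with replicates varying independently. A difference shared by replicates of the same number at both ages was not simulated. The 4.34% therefore does not give the share of false calls in the real comparison. The members and the 10 pathway and 10 marker lists were chosen with earlier results of these data known, and no list was given a test. Named were the 10 members, passing genes and the 2 smallest p of each list, the most abundant markers, and genes with a like pattern; the rule for the latter gave Myd88 as the most abundant member, so Tlr4, the next, was added. Other genes, such as Dusp1, Ticam1, Ly96, Csf1r, Tlr12 and the low target genes, were named after their values were seen.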

Additional observations from a re-analysis of the deposited data

How the results depend on the processing

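None of the 10 genes was called in 12 of 13 alternatives: a pseudocount of 5, no filter, a mean FPKM of at least 1 (where 5 were tested), TMM or median-ratio factors, limma-voom, either technical library alone, and leaving out each replicate. Of 125 member values 114 kept their direction and their side of the threshold. With replicates left out, the log2 change ranged from -0.78 to 0.40 for Tlr1, from -2.06 to 0.62 for Tlr8 and from -1.68 to 1.21 for Tlr9, and with the higher-numbered technical libraries it was 0.28 for Tlr1 and 0.01 for Tlr9. The cause was not tested. The number of genes called in all was 467 (368 higher, 99 lower). It was 0 in limma with no filter (0 and 0, with 2943 at an unadjusted p under 0.05 and 27330 genes tested), 302 (237 and 65) under the FPKM minimum, 342 (273 and 69) in limma-voom, 293 (242 and 51) with the lower-numbered and 314 (262 and 52) with the higher-numbered technical libraries. It ranged from 0 to 274 (0 to 206 higher, 0 to 68 lower) with replicates left out, where a lone sample is assumed to vary like the other group; without old 13 or old 14 limma called 0, with 3669 and 1933 at an unadjusted p under 0.05. Of the pathway genes, 1 higher and 1 lower in the main analysis, 0 and 0 were called with no filter, in limma-voom and with the lower-numbered technical libraries, 1 and 0 with the higher-numbered libraries and under the FPKM minimum, and 0 higher and 0 to 4 lower with replicates left out. The numbers 13 and 14 occur at both ages, but the labels do not say that a number marks a shared day, litter or animal. The difference of 14 from 13 correlated across genes between the ages (r = 0.544 over 18318 genes, which are not independent). With the replicate number as a block, limma called 2766 of the 18318 genes tested (1698 higher, 1068 lower), 7 pathway genes higher and 18 lower. It called 3 of the 10 genes: Tlr4 (log2 change 0.47, adjusted p = 0.0289), Tlr6 (0.55, 0.0309) and Tlr7 (-0.87, 0.0303). At an unadjusted p under 0.05 there were 8 of the 10 genes, and 4902 of all 18318. Depth limits Tlr1, Tlr5, Tlr7, Tlr8 and Tlr9, of which some library had between 6 and 15 reads.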
